A study of Mus musculus with 25 samples.

Results

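The transcripts of 10 genes of iron handling were followed in mouse liver: the hepcidin genes Hamp and Hamp2, the transferrin receptors Tfrc and Tfr2, transferrin (Trf), the ferritin subunits Fth1 and Ftl1, the exporter Slc40a1, the importer Slc11a2, and Id1, a read-out of BMP signalling. They were picked by gene symbol, stood in all 5 deposited tables, and are 10 of the 30524 genes listed (24774 in every table). All 10 passed the filter of 1 FPKM (a read level scaled by gene length and library total) in at least 4 libraries, together with 12741 genes in all.

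RNA was sequenced from 25 livers of C3H/HeJ mice, a strain prone to liver cancer, labelled male and 5 weeks old at the start. DEN_CAF_SOR (5 mice), DEN_SOR (4), DEN_CAF (5) and DEN (6) had received diethylnitrosamine, an alkylating liver carcinogen, by injection into the abdomen at 25 mg/kg 2 times a week for 3 weeks in each of 5 cycles over 4 months. Untreated (5 mice) had received saline in its place. After 1 month of rest, drugs were given by gavage for 3 weeks: caffeine at 50 mg/kg 3 times a week in DEN_CAF and DEN_CAF_SOR, sorafenib, a kinase inhibitor used against liver cancer, at 30 mg/kg 2 times a week in DEN_SOR and DEN_CAF_SOR, and only the vehicles in DEN and Untreated. The labels plan 6 animals a group and do not say whether tumour or surrounding tissue was taken. Libraries are numbered as in the labels, and p-values measure the spread between these mice.

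Hepcidin, the peptide made from Hamp by hepatocytes, binds the iron exporter ferroportin (Slc40a1) and sends it for degradation, so that less iron enters the blood. Hamp is switched on by the BMP-SMAD route, which reports iron stores, and by the interleukin-6 and STAT3 route, which reports inflammation. Inside cells, iron regulatory proteins bind hairpins called iron-responsive elements, which block translation when they lie before the coding part of an mRNA (ferritins, ferroportin) and stabilise the mRNA when they lie after it (Tfrc).

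The promoters of the hepcidin genes are shown because Hamp2 varied most in level among the members. Over all libraries the coefficient of variation was 203% for Hamp2, against 48.2% for Hamp and 69.2% for Id1. Over the 20 carcinogen livers alone it was 73.9% for Hamp2, 52.5% for Hamp and 65.0% for Id1. The windows run from 150 bases before the start site up to it, from RefSeq on GRCm38.p6, chr7:30944030-30944179 for Hamp and chr7:30924182-30924331 for Hamp2, both read from the minus strand. Capitals mark GGCGCC, the core of a BMP response element, with its counterpart in Hamp2, and the STAT site TTCNNNGAA.
Hamp: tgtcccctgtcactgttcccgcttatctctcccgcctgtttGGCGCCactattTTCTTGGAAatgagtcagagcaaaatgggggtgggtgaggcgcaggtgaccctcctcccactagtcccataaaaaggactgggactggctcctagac
Hamp2: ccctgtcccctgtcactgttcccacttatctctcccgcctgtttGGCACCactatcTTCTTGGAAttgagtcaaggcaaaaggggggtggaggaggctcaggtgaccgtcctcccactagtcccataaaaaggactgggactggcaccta
The aligned windows were 88.2% identical, with 12 substitutions and 6 gap columns. Of these, 1 fell in the BMP core, G45A (position 45 from the 5′ end of the Hamp window, Hamp base first), so that GGCGCC was found in the Hamp window and not in that of Hamp2. No substitution fell in the STAT site. Searched on both strands of all 32851 RefSeq promoters of 250 bases before to 50 after a start, GGCGCC stood in 11.9% and TTCNNNGAA in 8.30%. A match is a description of letters. The Hamp and Hamp2 transcripts, 410 and 420 bases long, were 92.4% identical with a longest shared run of 87 bases, so the split of reads between them is uncertain.

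Iron-responsive elements are shown for the members regulated through them. A search of the mouse transcripts (GENCODE, GRCm38) for the loop CAGTGN, in capitals, closed by paired stems gave 4 elements after the coding part of Tfrc and 1 each before that of Fth1, Ftl1 and Slc40a1. The elements stood in 1 of 3 coding transcripts of Tfrc, 4 of 5 of Fth1, 1 of 2 of Ftl1 and 1 of 4 of Slc40a1. The first and second of Tfrc and the 3 others read as follows.
Tfrc first: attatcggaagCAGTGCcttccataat
Tfrc second: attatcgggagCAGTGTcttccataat
Fth1: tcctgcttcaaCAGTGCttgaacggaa
Ftl1: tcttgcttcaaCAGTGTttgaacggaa
Slc40a1: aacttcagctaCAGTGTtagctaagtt
The search required 5 unbroken pairs next to the loop, so an element with a less regular stem would be missed. For Slc11a2 it found 0 elements, which does not show that its mRNA lacks one.

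Assigned reads ran from 14750278 to 21992613 per library. Hepatocyte markers were high in every library (summed FPKM of Alb, Ttr, Apoa1, Cps1, Fgb and Ass1 from 24374 to 87852), as the liver label says. Mitochondrial genes took 6.36% to 34.8% of the reads in the 10 libraries numbered 3 and 4, against 5.65% to 9.81% in the other 15. Markers of blood, 7 genes in the tables of 8 listed, summed to 237 to 1078 FPKM in DEN and to 714 to 2327 FPKM in Untreated, while those of dividing cells, 5 genes, summed to 1.96 to 10.3 FPKM in DEN and to 0.752 to 1.10 FPKM in Untreated, where Ccnb1 was listed at 0 in 3 libraries. Without DEN 4, which alone reached 10.3 FPKM, the DEN sums ran from 1.96 to 3.03 FPKM. Markers of cholangiocytes, 4 genes, summed to 2.37 to 20.9 FPKM in DEN_CAF_SOR, 2.48 to 23.7 in DEN_SOR, 3.87 to 12.02 in DEN_CAF and 1.98 to 8.27 in DEN, against 0.389 to 1.90 FPKM in Untreated, with no overlap. Markers of sinusoidal endothelium, 8 genes, had medians of 28.5 FPKM in DEN_SOR and 58.5 FPKM in Untreated, with ranges that overlapped. In such bulk samples fewer cells of a type and less RNA per cell cannot be told apart.

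Libraries of Untreated mice went against their label. Xist, which female cells transcribe from their silenced X chromosome, had 22879, 29770 and 13370 reads in Untreated 3, 4 and 5, against at most 21 in each of the other 22 libraries. Reads of Ddx3y, a gene on the Y chromosome, numbered 84, 30 and 48 in the same 3 libraries. Values of members and named genes in comparisons with Untreated are therefore also given without these 3 libraries. Untreated is then mice 1 and 2, which differed in acute phase genes, with 16.5 and 2803 FPKM of Saa1 and 0.873 and 231 FPKM of the iron-scavenging protein gene Lcn2. DEN 4 also stood apart: it had the lowest Hamp, Hamp2, Tfr2, Fth1 and Ftl1 and the highest Trf of all 25 libraries, with 132 reads of Ddx3y, the fewest outside the Xist libraries.

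Levels of the members were ordered, by median FPKM over the 25 libraries, as Trf (4736), Hamp (2982), Ftl1 (1665), Fth1 (445), Tfr2 (98.7), Hamp2 (45.8), Id1 (14.3), Slc40a1 (12.6), Tfrc (6.44) and Slc11a2 (4.84). The ranges of neighbours in this order overlapped, except that Ftl1 lay above Fth1 and Fth1 above Tfr2 in every library. The order depends on the listed lengths. Those of Fth1, Ftl1 and Slc40a1, 3469, 1340 and 9000 bases, exceed their main transcripts of 929, 968 and 3370 bases. The same holds for Tfrc, with 6185 against 4890 bases, and for Hamp2, with 583 against 420. The FPKM of these genes is therefore lower than one by those transcripts would be. For Hamp both lengths are 410 bases. In reads, Fth1 lay above Ftl1 in DEN 3, DEN 4 (19459 against 17793) and Untreated 3, and below it in the other libraries. Ferritin has near copies in the genome, of which Ftl1-ps1 had up to 922 reads in a library and the processed pseudogenes at most 8. Fth1 varied least, with a coefficient of variation of 18.0%, and Hamp2 most, with 203%.

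**Figure D1:**
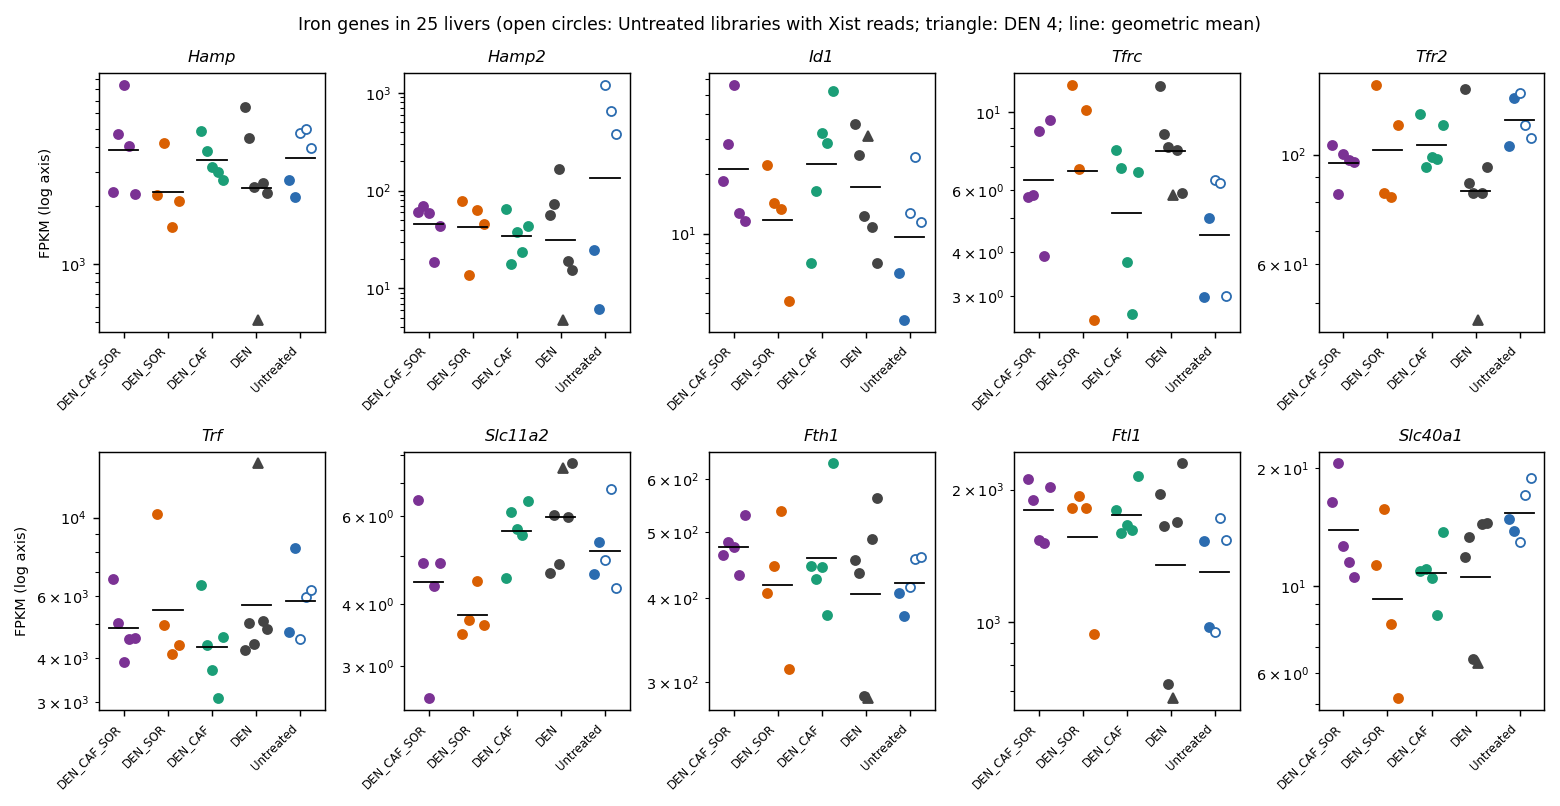
FPKM (log axis) of the 10 genes in each of the 25 livers by group, 1 point per library, with geometric means as lines, open circles for Untreated 3, 4 and 5 and a triangle for DEN 4. The open Hamp2 points, at 382 to 1204 FPKM, lie above all others, and DEN 4 lies at the bottom for Hamp (512 FPKM) and at the top for Trf (14267 FPKM).

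Carcinogen treatment alone, DEN against Untreated, gave 0 of 10 members called by limma at an adjusted p of 0.05, where 2.04% of all genes tested were called. By unadjusted p under 0.05, 4 members passed (Hamp2, Tfrc, Tfr2 and Slc40a1), against 16.5% of all genes. The members' median log2 fold change was -0.05, against 0.03 over all genes. By edgeR 0 members were called, with 4.69% of all genes called by that tool, and by DESeq2 1 was, Hamp2, with 8.17% of all genes called by that tool.

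Hamp, the hepcidin hormone, had a lowest value of 512, a median of 2570 and a highest value of 6451 FPKM in DEN, against 2703, 2223, 4748, 4968 and 3970 FPKM in Untreated 1 to 5. The Untreated range lay inside the DEN range, and the Untreated mice with the highest values, 3 to 5, were those with Xist reads. The log2 fold change was -0.52 (SE 0.46, 95% interval -1.47 to 0.43, adjusted p = 0.626), 0.01 without the Xist libraries and -0.07 without DEN 4. Among libraries numbered 3 and 4 alone it was -2.10 (adjusted p = 0.107), and among the others 0.34 (adjusted p = 0.672). Numbers 3 and 4 set DEN 3 and DEN 4 (2510 and 512 FPKM) against the Xist libraries Untreated 3 and 4.

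Hamp2, the duplicate hepcidin gene of mice, known as higher in female than in male mouse liver, showed the widest spread. In DEN its lowest value was 4.78, its median 37.7 and its highest 168 FPKM, against 25.0, 6.10, 1204, 654 and 382 FPKM in Untreated 1 to 5. The 3 high values are those of the Xist libraries, and Untreated 1 and 2 lay within the DEN range. The log2 fold change was -2.08 (SE 1.01, interval -4.16 to -0.0029, adjusted p = 0.303), -2.91 by DESeq2 (adjusted p = 0.0121), and turned to 1.30 (adjusted p = 0.586) without the Xist libraries. By edgeR without them, a fit chosen after seeing the data, it was 1.77.

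Id1, a transcriptional inhibitor induced by BMP signals, had 7.15 at its lowest, a median of 18.6 and 35.6 FPKM at its highest in DEN, against 6.36, 3.68, 12.7, 24.4 and 11.4 FPKM in Untreated 1 to 5. The groups overlapped, and the Untreated mice with the lowest values were those without Xist reads. The log2 fold change was 0.76 (SE 0.52, interval -0.31 to 1.84, adjusted p = 0.500) and 1.65 without the Xist libraries.

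Among the genes of uptake, Tfrc, the receptor that brings transferrin-bound iron into cells, had a lowest value of 5.84, a median of 7.87 and a highest of 11.9 FPKM in DEN, against 2.99, 4.99, 6.44, 6.31 and 3.00 FPKM in Untreated 1 to 5. Of the 6 DEN mice, 4 lay above all Untreated mice, and the ranges overlapped. The log2 fold change was 0.67 (SE 0.30, adjusted p = 0.259) and 0.85 without the Xist libraries, so no call was made. The summed markers of dividing cells given above were also higher in DEN, and their part in this value was not tested.

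Tfr2, the hepatocyte receptor that senses transferrin iron for the hepcidin route, had a lowest value of 46.2, a median of 85.7 and a highest of 136 FPKM in DEN, against 104, 130, 133, 115 and 108 FPKM in Untreated 1 to 5. DEN 1 lay above all Untreated mice and the other DEN mice lay below them. The log2 fold change was -0.47 (SE 0.19, adjusted p = 0.210), -0.46 without the Xist libraries and -0.30 (adjusted p = 0.436) without DEN 4. Trf, the iron carrier of plasma that hepatocytes secrete, had a lowest value of 4212, a median of 4934 and a highest of 14267 FPKM in DEN, against 4736, 8213, 4517, 5974 and 6218 FPKM in Untreated 1 to 5 (log2 -0.03, SE 0.29, adjusted p = 0.972). Slc11a2, the carrier of ferrous iron across membranes, had a lowest value of 4.62, a median of 6.01 and a highest of 7.68 FPKM in DEN, against 4.30 to 6.82 FPKM in Untreated (log2 0.19, SE 0.15, adjusted p = 0.580). Both genes overlapped widely between the groups, and without the Xist libraries their log2 fold changes were -0.14 and 0.24.

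The storage genes stayed within the spread between mice. Fth1, the ferritin heavy chain that oxidises iron, had a median of 445 FPKM in DEN and 414 in Untreated (log2 -0.06, interval -0.43 to 0.32, adjusted p = 0.921). Ftl1, the light chain, had medians of 1673 FPKM in DEN and 1528 in Untreated (log2 0.05, interval -0.54 to 0.65, adjusted p = 0.956). Without the Xist libraries the values were 0.053 for Fth1 and 0.15 for Ftl1. The lowest Ftl1 values of all 25 libraries, 673 and 724 FPKM, were those of DEN 4 and DEN 3. Slc40a1, the exporter, had a lowest value of 6.37, a median of 12.6 and a highest of 14.5 FPKM in DEN, against 14.8, 13.8, 12.9, 17.03 and 18.9 FPKM in Untreated 1 to 5. The groups overlapped at the top of DEN, and the log2 fold change was -0.50 (SE 0.24, adjusted p = 0.301), -0.40 without the Xist libraries. Kupffer cells, the macrophages that recycle iron, carry Slc40a1 too, and all 8 of their markers were detected and summed to 65.0 to 154 FPKM in DEN and 80.5 to 173 FPKM in Untreated; their part was not tested. Among libraries numbered 3 and 4 alone Slc40a1 fell by 1.09 on the log2 scale (adjusted p = 0.0489), where limma called 504 genes, against 260 with all libraries. In that subset DEN 3 and DEN 4 stood against 2 Xist libraries.

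**Figure D2:**
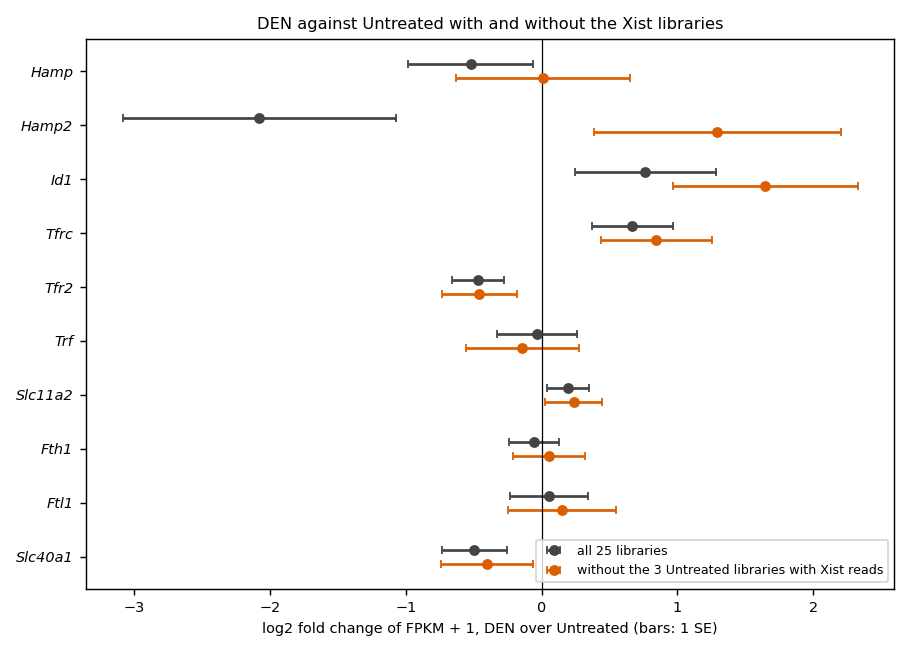
Log2 fold changes of FPKM + 1, DEN over Untreated, for the 10 genes with bars of 1 SE, from all 25 libraries and without Untreated 3, 4 and 5. Hamp2 is at -2.08 with all libraries and at 1.30 without the 3, Hamp at -0.52 and 0.01, Id1 at 0.76 and 1.65, and Tfr2 at -0.47 and -0.46.

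Drugs given after the carcinogen were compared with DEN. Caffeine (DEN_CAF against DEN) gave 0 of 10 members called by limma or edgeR, with 0.00785% of all genes called by limma, and 0 members at an unadjusted p under 0.05 against 2.81% of all genes. Sorafenib (DEN_SOR against DEN) gave 0 of 10 called by limma, edgeR or DESeq2, with 0.0% of all genes called by limma and 31 by DESeq2, and 1 member, Slc11a2, at an unadjusted p under 0.05 against 6.19% of all genes. Both drugs (DEN_CAF_SOR against DEN) gave 0 of 10 called by the 3 tools, with 0.0% of all genes called by limma, and again Slc11a2 alone at an unadjusted p under 0.05, against 2.72% of all genes.

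Slc11a2 had 3.48, 3.70, 4.44 and 3.63 FPKM in DEN_SOR 1 to 4, against 4.62 to 7.68 FPKM (median 6.01) in DEN. The groups did not overlap, which held for 0.699% of all genes in this comparison and for 1 of the 10 members. The log2 fold change was -0.55 (SE 0.16, interval -0.89 to -0.21, unadjusted p = 0.00296, adjusted p = 0.553), so the difference did not pass the test over all genes. It was -0.49 among libraries numbered 3 and 4 and -0.61 among the others. By edgeR it was -0.66 (adjusted p = 0.428) and by DESeq2 -0.66 (adjusted p = 0.147). With caffeine added, DEN_CAF_SOR 1 to 5 had 6.48, 4.82, 2.58, 4.34 and 4.84 FPKM, which overlapped DEN (log2 -0.36, SE 0.15, unadjusted p = 0.0291, adjusted p = 1.00). In DEN_CAF the gene had 4.51 to 6.43 FPKM (log2 -0.08, adjusted p = 1.00).

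Hamp had 2343, 4684, 8425, 4076 and 2285 FPKM in DEN_CAF_SOR 1 to 5, 2259, 4227, 1547 and 2114 FPKM in DEN_SOR 1 to 4, and 4842, 3830, 3178, 2982 and 2703 FPKM in DEN_CAF 1 to 5, against 512 to 6451 FPKM in DEN. Every drug group overlapped DEN, and DEN_CAF was the tightest, with an SD of 854 FPKM against 2050 FPKM in DEN. The log2 fold changes against DEN were 0.65 (interval -0.31 to 1.60) with both drugs, -0.06 (-1.08 to 0.95) with sorafenib and 0.47 (-0.48 to 1.43) with caffeine.

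Hamp2 stood at 18.6 to 69.3 FPKM in DEN_CAF_SOR, 13.9 to 79.3 in DEN_SOR and 17.9 to 64.9 in DEN_CAF, against 4.78 to 168 FPKM in DEN. All 3 drug ranges lay inside that of DEN, and their log2 fold changes of 0.49, 0.38 and 0.08 had SEs of 1.01, 1.07 and 1.01. Id1 ran from 11.6 to 56.1 FPKM in DEN_CAF_SOR, 4.56 to 22.1 in DEN_SOR and 7.12 to 52.2 in DEN_CAF, against 7.15 to 35.6 FPKM in DEN. The groups overlapped, with log2 fold changes of 0.28 (SE 0.52), -0.51 (SE 0.56) and 0.36 (SE 0.52).

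For the remaining members every drug group overlapped DEN. Tfrc with caffeine had 7.82, 6.96, 3.75, 2.67 and 6.78 FPKM in DEN_CAF 1 to 5, against 11.9, 8.68, 7.96, 5.84 and 7.79 FPKM in DEN 1 to 5 and 5.89 FPKM in DEN 6. For Tfrc each of DEN_CAF 1 to 5 lay below the DEN mouse of the same number (log2 -0.49, SE 0.30, adjusted p = 1.00). The labels do not say that mice of the same number are paired. With the number as a block the log2 fold change of Tfrc was -0.56 (SE 0.29, adjusted p = 0.998). By limma this was the largest shift among these members, while by edgeR and DESeq2 that of Trf was larger (-0.58 and -0.60, against -0.57 and -0.58 for Tfrc). The low values belonged to DEN_CAF 3 and 4, libraries with 23.6% and 23.1% of mitochondrial reads. Ftl1 with both drugs had 1514 to 2116 FPKM in DEN_CAF_SOR, against 673 to 2295 FPKM in DEN (log2 0.41, SE 0.29, adjusted p = 1.00). Trf in DEN_SOR was 10222 FPKM in mouse 1 and 4105 to 4950 FPKM in mice 2 to 4.

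**Figure D3:**
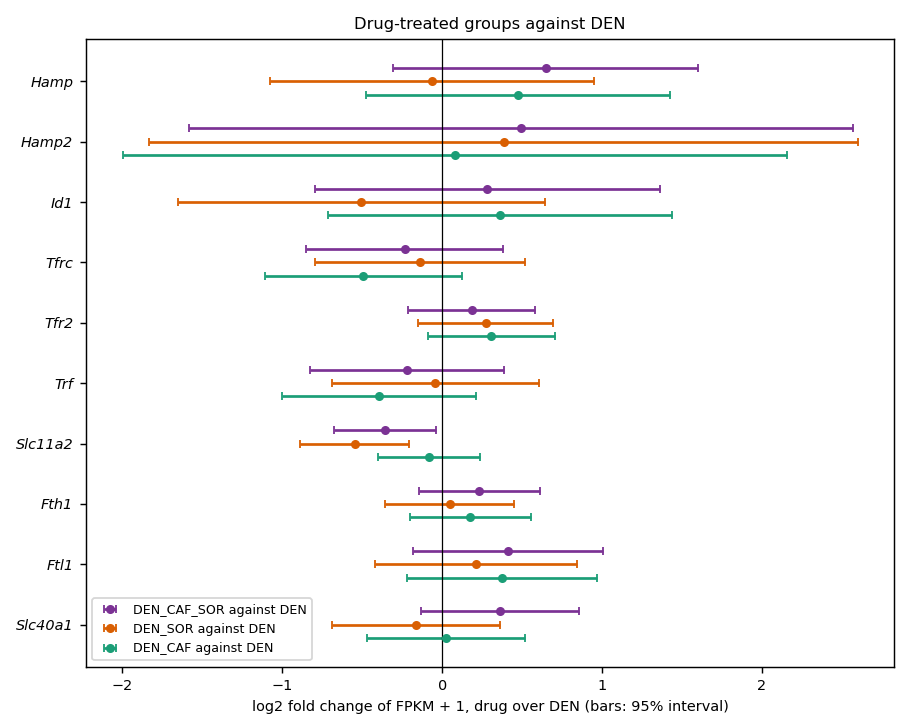
Log2 fold changes of FPKM + 1 with 95% intervals for DEN_CAF_SOR, DEN_SOR and DEN_CAF, each over DEN, for the 10 genes. Intervals of Slc11a2 lie below 0 for DEN_SOR (-0.89 to -0.21) and DEN_CAF_SOR (-0.68 to -0.04), before any adjustment, and all others cross 0.

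The drugs were also set against each other. For caffeine on top of sorafenib (DEN_CAF_SOR against DEN_SOR), for sorafenib on top of caffeine (DEN_CAF_SOR against DEN_CAF) and for the interaction of the drugs, 0 of 10 members were called by limma, edgeR or DESeq2, with 0.0% of all genes called by limma in each. At an unadjusted p under 0.05 there were 0 members in each, against 3.39%, 2.95% and 3.97% of all genes. Slc40a1 came nearest, with 16.4, 20.6, 12.6, 11.5 and 10.5 FPKM in DEN_CAF_SOR 1 to 5, against 11.3, 15.7, 8.02 and 5.18 FPKM in DEN_SOR 1 to 4. The groups overlapped (log2 0.53, SE 0.26, unadjusted p = 0.0568, adjusted p = 1.00).

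Each drug group was further set against Untreated, which these comparisons and that of DEN share. For DEN_CAF_SOR, DEN_SOR and DEN_CAF, 0 of 10 members were called by limma or edgeR, where limma called 0.494%, 2.62% and 1.01% of all genes and edgeR 1.3%, 4.14% and 1.71%. DESeq2 called Hamp2 alone in each (-3.15, -3.09 and -3.58, adjusted p = 0.0167, 0.0175 and 0.00345), with 3.1%, 9.38% and 3.62% of all genes called. At an unadjusted p under 0.05 there were 0, 1 (Slc40a1) and 1 (Id1) members, against 11.5%, 18.6% and 12.3% of all genes. The limma log2 fold changes of Hamp2 were -1.59, -1.70 and -2.0 with all libraries and 1.79, 1.68 and 1.37 without the Xist libraries, as in DEN. Id1 had 1.05 (SE 0.54), 0.26 (SE 0.58) and 1.13 (SE 0.54), none called, and 1.93, 1.14 and 2.01 without the Xist libraries. For Slc40a1 in DEN_SOR the log2 fold change was -0.66 (SE 0.26, adjusted p = 0.172), -0.41 (adjusted p = 0.414) without DEN_SOR 4 and -0.57 without the Xist libraries. Among libraries numbered 1, 2, 5 and 6 alone Tfrc rose by 1.14 in DEN_SOR (adjusted p = 0.0496), in a fit that called 388 genes in all. That subset sets DEN_SOR 1 and 2 (11.9 and 6.91 FPKM) against Untreated 1, 2 and 5 (2.99, 4.99 and 3.00 FPKM), and Untreated 5 is an Xist library. In the libraries numbered 3 and 4 Tfrc stood at -0.22.

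Of the 21 genes listed for the BMP-SMAD route to hepcidin, all tested, limma called 1 in DEN_CAF against Untreated (Atoh8), beside 1.01% of all genes, and 2 in DEN_SOR against Untreated (Atoh8 and Id2), beside 2.62% of all genes. In DEN_SOR edgeR, which called 4.14% of all genes, also called the receptor Neo1 (0.29, SE 0.10 and adjusted p = 0.122 by limma, edgeR adjusted p = 0.0473), with an edgeR adjusted p of 0.189 without the Xist libraries. Atoh8, a transcription factor induced by BMP signals that raises Hamp transcription, had 16.1, 10.9, 28.2, 24.9 and 27.9 FPKM in DEN_CAF 1 to 5, against 6.39, 4.64, 5.49, 10.1 and 7.69 FPKM in Untreated 1 to 5. Every DEN_CAF mouse lay above every Untreated mouse, and 5.51% of all genes did not overlap, in either direction, between these groups. It rose by 1.48 on the log2 scale (SE 0.25, adjusted p = 0.00263, edgeR adjusted p = 0.00202), and by 1.73 (adjusted p = 0.0394) without the Xist libraries. By edgeR without them it was 1.79 (adjusted p = 0.0543). Among libraries numbered 3 and 4 it was 1.70 (adjusted p = 0.0709) and among the others 1.34 (adjusted p = 0.0573). In DEN_SOR, with 15.8, 11.9, 17.8 and 12.8 FPKM, it rose by 1.01 (SE 0.27, adjusted p = 0.0436), a call that was lost without the Xist libraries (1.25, adjusted p = 0.134), with the replicate number as a block (adjusted p = 0.0558), with no filter on low values (adjusted p = 0.0603) and in the libraries numbered 3 and 4 (adjusted p = 0.209) or the others (adjusted p = 0.117). In DEN_CAF_SOR it was 1.00 (SE 0.25, adjusted p = 0.0744, edgeR adjusted p = 0.0421; edgeR adjusted p = 0.296 without the Xist libraries), and in DEN 0.66 (SE 0.24, adjusted p = 0.158). DEN_CAF against DEN gave 0.82 (SE 0.24, unadjusted p = 0.0024, adjusted p = 1.00).

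Id2, a further BMP-responsive inhibitor of transcription, had 44.8, 75.9, 30.1 and 35.4 FPKM in DEN_SOR 1 to 4, against 90.4, 116, 98.3, 129 and 111 FPKM in Untreated 1 to 5. All DEN_SOR mice lay below all Untreated mice, and 7.28% of all genes did not overlap, in either direction, between these groups. It fell by 1.29 on the log2 scale (SE 0.34, adjusted p = 0.0415), and was -1.21 (adjusted p = 0.289) without the Xist libraries, -1.75 (adjusted p = 0.0997) among libraries numbered 3 and 4 and -0.84 (adjusted p = 0.255) among the others. The Id2 call was also lost on leaving out any 1 of DEN_SOR 1, 3 and 4 or any 1 Untreated mouse, and that of Atoh8 in DEN_SOR without DEN_SOR 1 or 3 or Untreated 1, 2, 3 or 5. The call of Atoh8 in DEN_CAF held without any 1 library. With no filter on low values the adjusted p of Id2 was 0.0582. The cholangiocyte marker sums given above also differed between these groups. Endothelial sums were 10.5 to 39.9 FPKM in DEN_SOR and 31.5 to 45.6 FPKM in DEN_CAF. In Untreated they were 36.4 and 29.0 FPKM in mice 1 and 2, and 58.5 to 71.0 FPKM in the Xist libraries. The part of these cell types in the Atoh8 and Id2 values was not tested. Against DEN, Id2 in DEN_SOR was -0.73 (SE 0.33, adjusted p = 0.787). Hamp and Id1 were not called in these comparisons.

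**Figure D4:**
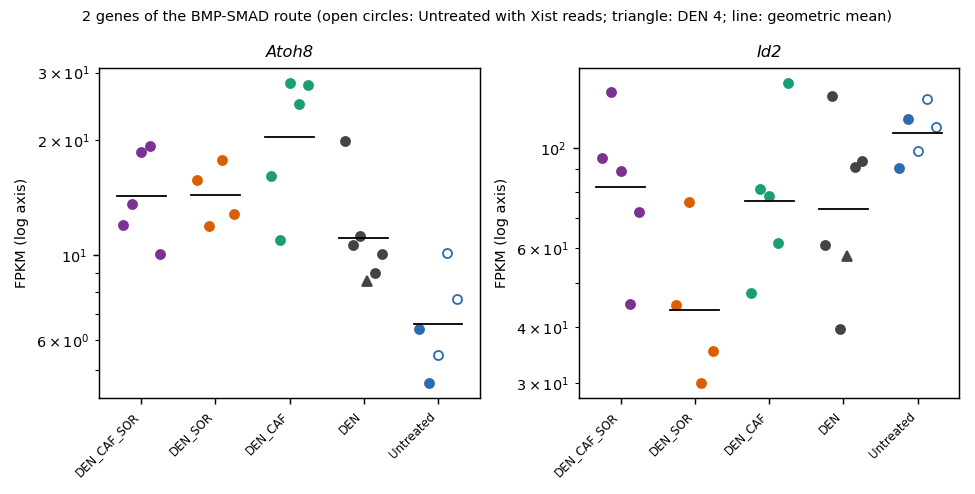
FPKM (log axis) of Atoh8 and Id2 in each liver by group, with geometric means as lines, open circles for the Untreated libraries with Xist reads and a triangle for DEN 4. Atoh8 in DEN_CAF (10.9 to 28.2 FPKM) lies above Untreated (4.64 to 10.1 FPKM), and Id2 in DEN_SOR (30.1 to 75.9 FPKM) lies below Untreated (90.4 to 129 FPKM).

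The other lists held 0 called genes by limma in DEN against Untreated. Of 12 tested genes of the inflammatory route (median log2 0.04) Saa3, an acute phase protein, had the smallest p (0.62, SE 0.28, adjusted p = 0.261). Of 12 tested genes of uptake and scavenging (median 0.29) it was the heme carrier Slc48a1 (0.66, SE 0.25, adjusted p = 0.182), and of 6 genes of iron sensing (median -0.10) the iron regulatory protein Ireb2 (-0.25, SE 0.19, adjusted p = 0.573). Of 13 heme genes (median -0.10) it was Ppox (-0.35, SE 0.18, adjusted p = 0.359), and of 14 genes of mitochondrial iron and iron-sulfur clusters (median -0.13) the ferredoxin Fdx1 (-0.74, SE 0.23, adjusted p = 0.0943, edgeR adjusted p = 0.0497). In the BMP-SMAD list (median -0.00079) it was the ligand Bmp4 (0.76, SE 0.26, adjusted p = 0.135). These medians stand beside 0.03 over all genes. Without the Xist libraries the log2 fold changes were 0.14 for Saa3, 0.63 for Slc48a1, -0.24 for Ireb2, -0.10 for Ppox, -0.85 for Fdx1 and 0.81 for Bmp4, none called by limma or edgeR (edgeR adjusted p = 0.151 for Fdx1). In the 3 comparisons of drugs with DEN, 0 genes of any list were called by limma or edgeR.

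Of these genes, 8 pairs were correlated over the 25 livers, each gene as log2(FPKM + 1) minus its group mean, with permutation tests and adjustment over the pairs. The Untreated mean takes in the 3 Xist libraries, and the pairs were not correlated without them. Id1 and Smad7, the inhibitory SMAD that BMP signals induce, moved together (Pearson r = 0.707, permutation p = 0.0004, adjusted p = 0.0032, Spearman rho = 0.717, permutation p = 0.00033). Without the 2 livers farthest from the median Id1 deviation, DEN_SOR 4 and DEN_CAF 1, r was 0.686, and it was 0.51 among the 10 libraries numbered 3 and 4 and 0.852 among the other 15. Hamp did not pass with Smad7 (r = 0.519, permutation adjusted p = 0.0564, rho = 0.321, permutation adjusted p = 0.211), with Hamp2 (r = 0.459, permutation adjusted p = 0.0589, rho = 0.481, permutation adjusted p = 0.101), with Id1 (r = 0.209, permutation adjusted p = 0.479, rho = 0.328, permutation adjusted p = 0.211) or with the acute phase gene Saa1 (r = -0.122, permutation adjusted p = 0.544, rho = -0.057, permutation adjusted p = 0.787). Without DEN 1 and DEN 4, the livers farthest in Hamp, r with Smad7 was 0.312. Tfrc did not pass with Fth1 (r = 0.413, permutation adjusted p = 0.126, rho = 0.406, permutation adjusted p = 0.154), with Slc11a2 (r = -0.117, permutation adjusted p = 0.560, rho = -0.0854, permutation adjusted p = 0.787) or with the proliferation gene Mki67 (r = -0.238, permutation adjusted p = 0.363, rho = -0.329, permutation adjusted p = 0.211). For Tfrc and Fth1 r was 0.643 among libraries numbered 3 and 4 and -0.122 among the others.

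**Figure D5:**
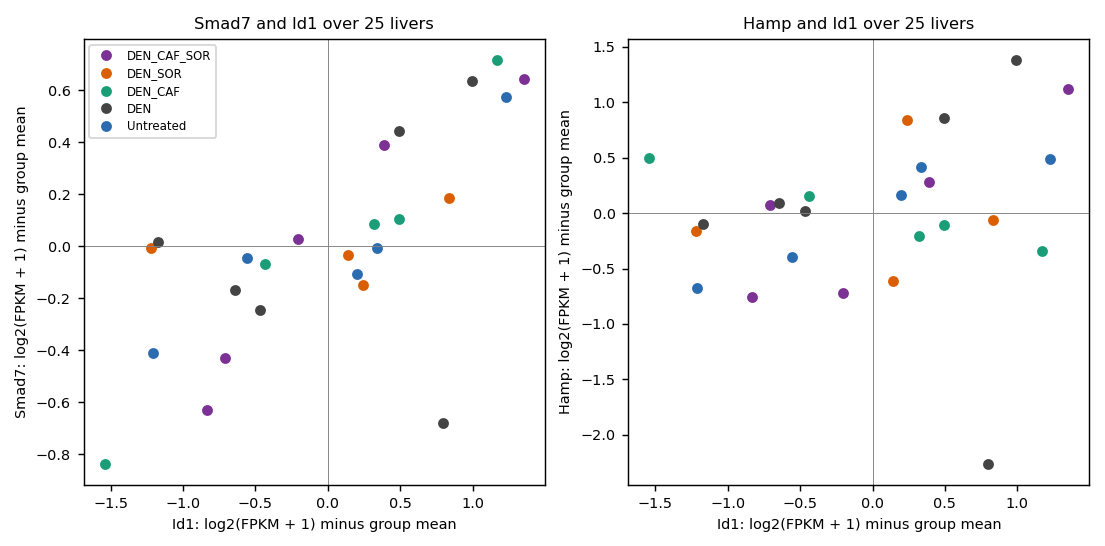
Deviations of log2(FPKM + 1) from the group mean in 25 livers, coloured by group, for Smad7 against Id1 and for Hamp against Id1. The Smad7 points rise with Id1 (r = 0.707), while the Hamp points scatter (r = 0.209).

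The protein-coding genes most alike, among 10654 and by Pearson r of these deviations over 25 libraries, are named as a description without a test. For Hamp they were Homer2 (0.837), Apoa5, Pdk1, Ankrd55 and Mfn1 (0.817), and without DEN 4 their r was 0.679 to 0.773. For Hamp2 they were Dll1 (0.897), Mgst3, Cyp2b13, Cyp2b9 and Cyp2a22 (0.855). The Hamp2 deviations were widest in Untreated, at -2.44 and -4.31 in mice 1 and 2 and 3.10, 2.21 and 1.44 in the Xist libraries 3 to 5. Over the 20 carcinogen livers alone, an alternative chosen after seeing the data, r of these 5 genes with Hamp2 was 0.615 to 0.759. For Tfrc they were Clip1 (0.869), Epg5, Got1, Rbm27 and Ube2g2 (0.827). For Id1 they were Senp3 (0.739), Wdr5, Sertad1, Phykpl and Ets2 (0.728). The 25 points share each library's depth and mitochondrial share.

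On GRCm39, as the files give it, Hamp (ENSMUSG00000050440) lies at chr7:30641793-30643457, Hamp2 (ENSMUSG00000056978) at chr7:30621797-30624106, Id1 (ENSMUSG00000042745) at chr2:152578171-152579330, Tfrc (ENSMUSG00000022797) at chr16:32427738-32451612 and Tfr2 (ENSMUSG00000029716) at chr5:137568102-137585743. Trf (ENSMUSG00000032554) lies at chr9:103081200-103107643, Slc11a2 (ENSMUSG00000023030) at chr15:100285779-100322953, Fth1 (ENSMUSG00000024661) at chr19:9957962-9962462, Ftl1 (ENSMUSG00000050708) at chr7:45107368-45109308 and Slc40a1 (ENSMUSG00000025993) at chr1:45947228-45965683.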

How the data were processed

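Reads were aligned with HISAT2 2.0.5 and counted with featureCounts 1.5.0-p3 on GRCm39, per the submitters' processing notes. Libraries were made with a SMARTer kit, per the labels. For strand use and annotation release nothing was found, so antisense overlaps are uncertain. The deposited tables, named for FPKM, hold a signal: whole reads divided by 1 size factor per library. In each library 100% of values were whole multiples of 1 step within 0.01 read, so reads were recovered (in 4 columns the step lies too near 1 for this to be checked independently). FPKM was computed from reads, library total and listed gene length; 0 unmapped columns were found. The design allowed for such tables, and limma on FPKM stayed the main test.

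Genes with 1 FPKM in 4 libraries (12741) entered limma (version 3.58.1, R 4.3.3) as log2(FPKM + 1), a scale that understates the change of low genes. All 25 libraries shared 1 model with 20 residual degrees of freedom, with Benjamini-Hochberg adjustment at 0.05 per comparison, two-sided. An adjusted p without a tool's name is limma's. edgeR 4.0.16 and DESeq2 1.42.0 were run on the recovered reads as alternatives; for DEN against Untreated they called 598 and 1040 genes, limma 260. Scripts were tested on simulated data. Correlations used 100000 permutations within groups, two-sided. Each replicate number was checked for pairing: only for DEN_CAF against DEN did every pair of deviations correlate above 0.1 (0.131 to 0.507). A fit with the number as a block is given there, although the labels do not say that a number marks anything shared between groups. Promoters come from RefSeq (6 of 10 members matched), elements from GENCODE transcripts. Genes were named by rule: all members, called list genes (at most 4 a list and comparison), otherwise the list gene with the smallest p, and the 5 genes most alike. The genes with the smallest p are given for every list only in DEN against Untreated, though the rule covered every comparison. The members and lists were chosen with earlier results of these data known.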

Additional observations from a re-analysis of the deposited data

Results flagged for a closer look

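Of 50 sets of values (10 genes in 5 groups), 4 held a library whose gap to its nearest neighbour exceeded Dixon's 95% critical value, and chance gives about 1 in 20. Trf was 14267 FPKM in DEN 4, where the next highest of 6 mice had 5094, and 10222 FPKM in DEN_SOR 1, where the next of 4 had 4950. Fth1 was 633 FPKM in DEN_CAF 5, where the next of 5 had 445. Ftl1 was 939 FPKM in DEN_SOR 4, the library with 34.8% of mitochondrial reads, where the next lowest of 4 had 1814.

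For Tfr2, caffeine-treated mice lay on opposite sides of the mean without caffeine with and without sorafenib, although the ranges overlapped. All 5 DEN_CAF_SOR mice (83.2 to 104 FPKM) lay below the DEN_SOR mean of 105 FPKM, and all 5 DEN_CAF mice (94.3 to 121 FPKM) lay above the DEN mean of 88.6 FPKM. The mean shift with sorafenib minus that without it was -25.2 FPKM. In the limma interaction this was -0.40 on the log2 scale (SE 0.29, adjusted p = 0.992), so it did not pass. The DEN mean was 97.0 FPKM without DEN 4, above the lowest DEN_CAF mouse, and the DEN_SOR median was 99.4 FPKM, below 2 of the DEN_CAF_SOR mice.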

How the results depend on the processing

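By limma 0 of 10 members were called in each of the 10 comparisons, and that count held in the fits that left out 1 library at a time. Exceptions were 1 call by DESeq2 in each comparison with Untreated (Hamp2), 1 for DEN against Untreated among libraries numbered 3 and 4 alone (Slc40a1), and 1 for DEN_SOR against Untreated among those numbered 1, 2, 5 and 6 alone (Tfrc). With the replicate number as a block, 0 members were called, DEN_CAF against DEN included. In that fit 359 genes were called for DEN against Untreated, against 260 without the block. Over all comparisons 8 of 25 libraries correlated best with their own number. For DEN against Untreated all genes called numbered 440 with TMM scaling, 598 by edgeR, 1040 by DESeq2, 504 among libraries numbered 3 and 4, 160 among the others, 477 with that split as a term, 127 with only the compared groups and 34 without the Xist libraries (41 by edgeR). Without the Xist libraries limma called 19 genes for DEN_CAF, 31 for DEN_SOR and 3 for DEN_CAF_SOR against Untreated, where all libraries gave 129, 334 and 63, edgeR 218, 527 and 166, DESeq2 461, 1195 and 395, TMM scaling 168, 536 and 111, only the compared groups 263, 274 and 150, libraries numbered 3 and 4 31, 60 and 91, and the others 152, 388 and 34. Leaving mitochondrial genes out of the totals shifted the median of all genes by up to 0.12 (log2). Of 2390 alternative member values the sign was opposite to the reported log2 fold change in 165 where the reported value was smaller than its SE and in 22 where it was not. With TMM scaling, opposite values were Ftl1 -0.0360 (DEN against Untreated), Slc40a1 -0.00690 (DEN_CAF against DEN), Fth1 -0.00377 (DEN_CAF against Untreated). With library totals that leave out mitochondrial genes, opposite values were Trf 0.0298, Fth1 0.00930 (DEN against Untreated), Hamp 0.00721, Trf 0.0261 (DEN_SOR against DEN), Ftl1 -0.0161 (DEN_CAF_SOR against DEN_CAF). There were also Hamp 0.0509 (DEN_CAF against Untreated), Trf 0.0559, Fth1 0.13 (DEN_SOR against Untreated), Hamp2 -0.0942, Fth1 -0.11 (caffeine by sorafenib interaction) in that setting. By edgeR, opposite values were Trf 0.0513 (DEN against Untreated), Hamp2 -0.66, Slc40a1 -0.0572 (DEN_CAF against DEN), Hamp2 -0.18 (DEN_SOR against DEN). There were also Hamp2 -0.23 (DEN_CAF_SOR against DEN), Hamp2 -0.0565 (DEN_CAF_SOR against DEN_SOR) in that setting. By DESeq2, opposite values were Trf 0.0693 (DEN against Untreated), Hamp2 -0.67, Slc40a1 -0.0654 (DEN_CAF against DEN), Hamp2 -0.18 (DEN_SOR against DEN). There were also Hamp2 -0.24 (DEN_CAF_SOR against DEN), Hamp2 -0.0589 (DEN_CAF_SOR against DEN_SOR) in that setting. With the replicate number as a block, opposite values were Trf 0.00964, Ftl1 -0.0985 (DEN against Untreated), Hamp2 -0.13 (DEN_CAF against DEN), Fth1 0.0602 (DEN_SOR against Untreated). There were also Fth1 -0.15 (caffeine by sorafenib interaction) in that setting. With libraries numbered 3 and 4 as a term, opposite values were Fth1 0.0150 (DEN_SOR against Untreated), Fth1 -0.0304 (caffeine by sorafenib interaction). Among libraries numbered 3 and 4 alone, opposite values were Trf 0.61, Ftl1 -0.87 (DEN against Untreated), Hamp2 -0.00797 (DEN_CAF against DEN), Hamp 0.67, Slc40a1 0.00372 (DEN_SOR against DEN). There were also Hamp2 -0.67, Tfrc 0.14, Tfr2 0.0245, Slc11a2 -0.20 (DEN_CAF_SOR against DEN_SOR), Tfr2 0.00534, Ftl1 -0.11 (DEN_CAF_SOR against DEN_CAF), Tfrc -0.82, Fth1 -0.0870, Slc11a2 -0.0458 (DEN_CAF against Untreated) in that setting. There were also Tfrc -0.22, Id1 -1.06 (DEN_SOR against Untreated), Tfrc -0.0836 (DEN_CAF_SOR against Untreated), Hamp2 -0.66, Fth1 -0.38, Slc11a2 -0.10 (caffeine by sorafenib interaction) in that setting. Among libraries numbered 1, 2, 5 and 6 alone, opposite values were Hamp 0.34, Fth1 0.23 (DEN against Untreated), Trf 0.0794, Ftl1 -0.0388, Slc40a1 -0.17 (DEN_CAF against DEN), Tfrc 0.12, Trf 0.57, Fth1 -0.18, Ftl1 -0.00447, Id1 0.11 (DEN_SOR against DEN). There were also Hamp -0.32, Tfr2 -0.0618, Trf 0.16 (DEN_CAF_SOR against DEN), Hamp -0.0783 (DEN_CAF_SOR against DEN_SOR), Hamp -0.33, Tfrc -0.0595, Fth1 -0.00559 (DEN_CAF_SOR against DEN_CAF) in that setting. There were also Hamp 0.36 (DEN_CAF against Untreated), Hamp 0.10, Trf 0.19, Fth1 0.0470 (DEN_SOR against Untreated), Hamp2 0.48, Slc11a2 0.15 (DEN_CAF_SOR against Untreated) in that setting. There were also Hamp -0.0963, Tfrc -0.18, Trf -0.49, Ftl1 0.14, Id1 -0.14 (caffeine by sorafenib interaction) in that setting. Without the Xist libraries, opposite values were Hamp 0.0105, Hamp2 1.30, Fth1 0.0526 (DEN against Untreated), Hamp 0.48, Hamp2 1.37 (DEN_CAF against Untreated), Hamp2 1.68, Fth1 0.0987 (DEN_SOR against Untreated). There were also Hamp2 1.79 (DEN_CAF_SOR against Untreated) in that setting. By edgeR without them, chosen after seeing the data, opposite values were Hamp 0.16, Hamp2 1.77 (DEN against Untreated), Hamp 0.32, Hamp2 1.11, Slc11a2 -0.0130 (DEN_CAF against Untreated), Hamp2 1.59 (DEN_SOR against Untreated). There were also Hamp2 1.53 (DEN_CAF_SOR against Untreated) in that setting. Leaving out 1 library at a time, values spanned 0 for Ftl1 -0.0208 to 0.11, Hamp -0.11 to 0.36, Id1 -0.47 to 0.21, Fth1 -0.0140 to 0.17 (DEN_CAF_SOR against DEN_CAF), Hamp2 -0.49 to 0.53, Hamp -0.0470 to 0.69, Fth1 -0.13 to 0.13, Ftl1 -0.42 to 0.0283, Trf -0.0451 to 0.52 (caffeine by sorafenib interaction), Hamp2 -0.41 to 0.42, Tfrc -0.48 to 0.14, Tfr2 -0.19 to 0.0552, Trf -0.31 to 0.12, Ftl1 -0.0438 to 0.30 (DEN_CAF_SOR against DEN_SOR). The same held for Id1 -0.0558 to 0.49, Hamp2 -0.0144 to 0.96, Trf -0.33 to 0.0489 (DEN_CAF_SOR against DEN), Hamp -0.16 to 0.31 (DEN_CAF_SOR against Untreated), Fth1 -0.13 to 0.13, Id1 -0.0454 to 0.66, Trf -0.38 to 0.0608 (DEN_SOR against Untreated). The same held for Trf -0.34 to 0.22, Hamp -0.52 to 0.21, Fth1 -0.0747 to 0.18, Tfrc -0.37 to 0.25, Slc40a1 -0.40 to 0.0816, Hamp2 -0.12 to 0.90 (DEN_SOR against DEN), Hamp2 -0.43 to 0.55, Slc40a1 -0.11 to 0.11 (DEN_CAF against DEN), Hamp -0.22 to 0.0726 (DEN_CAF against Untreated). The same held for Trf -0.30 to 0.0909, Ftl1 -0.0985 to 0.26, Fth1 -0.15 to 0.0467 (DEN against Untreated). For Tfrc and Fth1, r was -0.122 among libraries numbered 1, 2, 5 and 6. Causes were not tested. The fewest reads behind a member value were 55 (Hamp2, DEN 4), 72 (Id1, Untreated 2) and 235 (Tfrc, DEN_SOR 4), which limits the precision of these genes.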
